A study of Mus musculus with 2 samples.

Results

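The genes described here are those of the laminin chains and of the proteins that tie laminin into the basement membrane. They are 10 genes named by symbol, and all 10 were among the 21829 genes with values in the C2C12 RNA sequencing. They comprise the laminin alpha chain genes Lama2, Lama4 and Lama5, the beta chain genes Lamb1 and Lamb2, the gamma chain gene Lamc1, the nidogen genes Nid1 and Nid2, the perlecan gene Hspg2 and the agrin gene Agrn. C2C12 cells are mouse myoblasts that divide without limit, and the samples were 1 WT library and 1 library from a Gne KO line, both from growing cells in serum-containing medium. According to the study's methods the KO line came from a single clone isolated after Cas9 editing of Gne, the gene for the bifunctional enzyme that starts sialic acid synthesis, and the labels name no treatment. With 1 library per line no difference has a replicate check in these data, and what belongs to that clone and what belongs to Gne cannot be told apart. Gne itself was at 6.67 FPKM in the WT library against 7.34 FPKM in the library labelled KO, so its level does not show which library carries the edit, a small insertion that an RNA level need not reveal.

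A laminin is a trimer of 1 alpha, 1 beta and 1 gamma chain, secreted once all chains have come together. Laminin trimers polymerise on the cell surface, where alpha chain domains bind integrins and dystroglycan, while nidogens, perlecan and agrin join the polymer to the type IV collagen network or back to the cell. In muscle this sheet surrounds each fibre and underlies the satellite cells, and mutations in its laminin alpha 2 chain cause a congenital muscular dystrophy.

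The deposited values carry no unit and were read as FPKM, fragments counted for each kilobase of transcript and scaled by the fragments of the library, so that genes of different length can be compared within a library. Differences are given as the plain ratio and as log2((KO + 1)/(WT + 1)), in which adding 1 FPKM holds the changes of low genes near 0. A gene passed the filter if the mean of both libraries reached 1 FPKM, and such a gene counts as more than 2-fold different once its log2 fold change lies beyond 1 in either direction. Pairs of values give the WT library first.

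Markers of cell identity differed between the libraries. Of 9 myoblast markers 7 passed the filter, 4 were more than 2-fold lower in the library labelled KO and 1 was more than 2-fold higher. The corresponding shares in the whole data set were 3.43% for lower and 2.84% for higher. The 9 markers summed to 261 FPKM in the WT library against 67.1 FPKM in the library labelled KO. The muscle regulator Myod1 was at 60.0 FPKM in the WT library and listed at 0 in the other. Des was at 97.6 and 3.84 FPKM, Cdh15 at 16.6 and 0.701 FPKM and Chrna1 at 15.3 and 0.917 FPKM. Myod1, Cdh15 and Chrna1 reached the filter only through the WT library, where they are high. Ncam1 was nearer to even at 14.7 and 13.0 FPKM, Myf5 was higher in the library labelled KO at 9.14 and 20.3 FPKM, and Pax7 was listed at 0 in both. The WT library thus had 1 of the 9 markers at 0 and the library labelled KO had 2. Of 8 fibroblast markers, which summed to 170 and 387 FPKM, 3 passed the filter, and most of the difference in the sum was that of Col1a1, at 9.66 and 273 FPKM. Thy1 and Lum were listed at 0 in both libraries, Pdgfra was at 10.8 and 12.3 FPKM and Pdpn at 149 and 99.3 FPKM. Under the filter, Dcn was at 0.272 and 1.68 FPKM and Dpt at 0.041 and 0.493 FPKM. Endothelial cells are a main source of Lama4 and Lama5 in tissue. Their 8 markers summed to 0.109 FPKM in the WT library against 1.18 FPKM in the library labelled KO, of which Flt1 was 1.10 FPKM, and the defining markers Cdh5 and Kdr were listed at 0 in both. The 8 Schwann cell markers summed to 1.20 and 1.39 FPKM and the 8 epithelial markers to 18.9 and 6.22 FPKM, mostly Krt14, at 18.8 and 6.20 FPKM. The part of these shifts in the differences of the laminin and linker genes was not tested, and in bulk RNA fewer cells of a type and less RNA per cell cannot be told apart.

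In the WT library Nid1 had the highest level, 89.0 FPKM, followed by Lamc1, Hspg2, Lamb2, Lamb1 and Lama5. Agrn and Nid2 were lower, and Lama4 and Lama2 were below 1 FPKM. In the library labelled KO the order was Lamc1, Nid1, Lamb1, Hspg2, Nid2, Lamb2, Lama5, Agrn, Lama4 and Lama2. Without replicates it is not known which neighbours in either order differ beyond the spread between samples. Lamc1, Nid1 and Hspg2 were among the more abundant RNAs of the cells, with levels above 91.9%, 95.4% and 88.7% of all listed genes in the WT library. The 10 genes summed to 281 FPKM in the WT library against 325 FPKM in the library labelled KO.

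**Figure D1:**
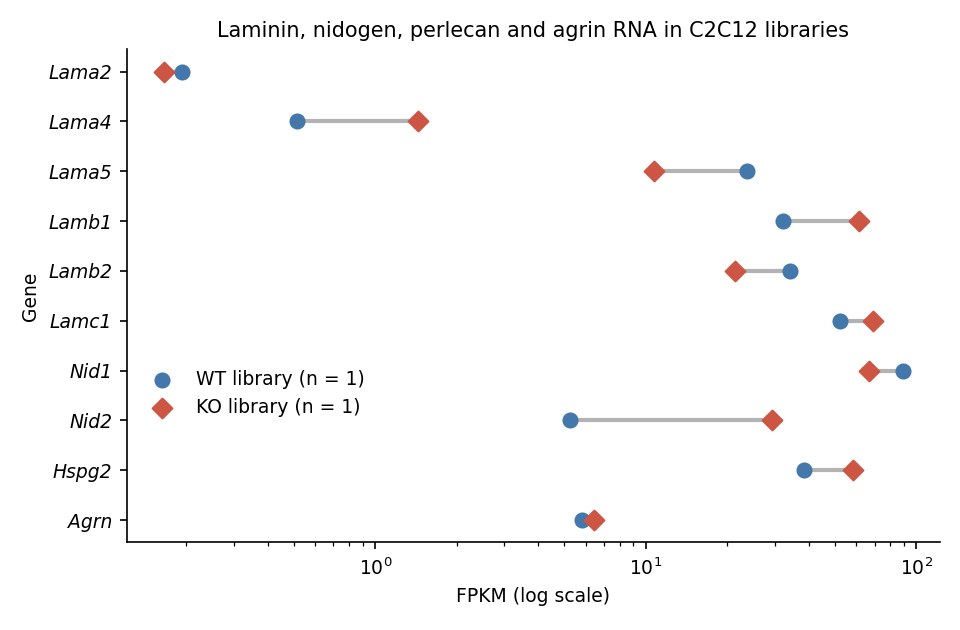
Level of each of the 10 genes in FPKM on a log axis, with a circle for the WT library and a diamond for the library labelled KO. Nid2 has the longest line, from 5.23 to 29.3 FPKM, and the Lama2, Lama5, Lamb2 and Nid1 diamonds lie to the left of their circles.

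Of the 10 members 8 passed the filter, all but Lama2 and Lama4. In the library labelled KO 1 of these 8 genes was more than 2-fold higher, Nid2, and 1 was more than 2-fold lower, Lama5. Of all 10542 genes that passed it, 2.84% were higher by more than 2-fold and 3.43% were lower by as much. Counts of 1 in 8 are too small to set the family apart from these shares. Without regard to size, 5 of the 8 were higher and 3 lower, beside 5348 higher and 5192 lower of all 10542 genes. So few members do not set the family apart by direction either. The members' median log2 fold change was 0.27, against 0.0061 for all genes past the filter. The middle 50% of all genes lay between -0.21 and 0.23, and 7 of the 8 members lay outside it, with Agrn inside. The beta chains lay on opposite sides of this range, and so did the nidogens.

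**Figure D2:**
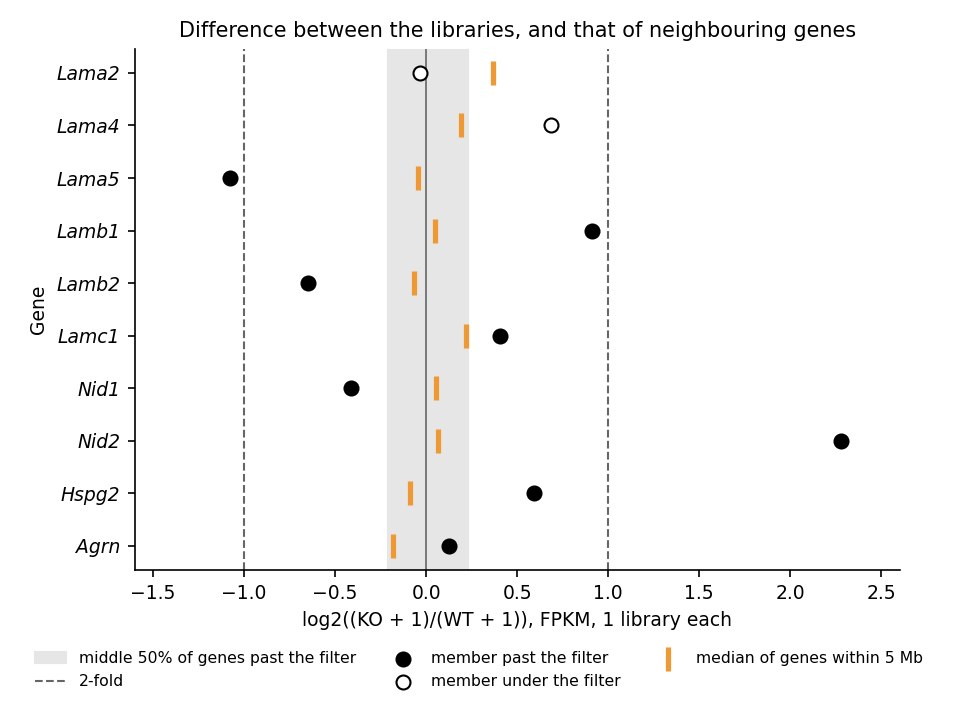
Log2 fold change of each member (library labelled KO over WT, 1 library each), with filled points for genes past the filter, open points for the others and bars for the median of genes within 5 Mb. Nid2 at 2.28 and Lama5 at -1.07 lie beyond the dashed 2-fold lines, and the bars of all members lie between -0.18 and 0.37.

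Among the alpha chains, Lama5 carried nearly all of the RNA. Lama5, the long alpha chain of epithelial, vascular and synaptic basement membranes, is on chromosome 2 from 179818166 to 179867712 (GRCm39, minus strand, 79 exons in its canonical GENCODE transcript). Its level was 23.7 FPKM in the WT library against 10.7 FPKM in the library labelled KO, 2.21 times lower, with a log2 fold change of -1.07. This value lies close to the 2-fold line, so that with a pseudocount of 5 Lama5 is no longer beyond it, and 318 of the genes past the filter had a lower value. The 42 genes past the filter within 5 Mb of Lama5, called its neighbours from here on, had a median of -0.046.

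Lama4, a short alpha chain found around vessels, nerves and fat and at the muscle synapse, was at 0.515 FPKM in the WT library against 1.43 FPKM in the library labelled KO. The plain ratio was 2.78 and the log2 fold change 0.68, since a pseudocount of 1 is larger than the WT value, and 1.48 without a pseudocount. The study reports Lama4 as elevated in its KO cells by real-time PCR, a measurement that is not part of these data. Lama4 lies on chromosome 10 from 38841141 to 38998403, where the 40 neighbouring genes had a median of 0.19 and 32 of them were higher. Its exons overlap those of Fam229b on the opposite strand by up to 806 bases, and Fam229b went the same way, from 4.00 to 7.28 FPKM. The libraries are described as strand-specific, but whether the authors counted by strand is not given in the sources used here. How the reads of the overlap were divided between the 2 genes is therefore not known. Among genes with values in both libraries, opposite-strand partners also share exon bases with Lamb1, Nid2, Lama5 and Hspg2, 303 for Lamb1 with Dld, 85 for Lama5 with Adrm1 and 45 for Hspg2 with Ldlrad2. Dld was at 67.4 and 59.0 FPKM and Adrm1 at 105 and 104 FPKM, and Ldlrad2 was listed at 0 in both libraries. Overlaps with annotated genes that have no value here, such as those of Lama2 and Nid1, were not used.

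Lama2 encodes the alpha chain of the main laminin of mature muscle fibres, the one lost in merosin-deficient dystrophy. It was at 0.193 FPKM in the WT library against 0.165 FPKM in the library labelled KO. Lama2 was the lowest of the family in both libraries, and its log2 fold change of -0.03 lay inside the range of the middle 50% of genes. It also sits on chromosome 10, from 26856032 to 27495754, and 23 of its 25 neighbours past the filter were higher, with a median of 0.37. Of all 10542 genes past the filter, 5348 were higher.

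The beta chains had nearly equal levels in the WT library and unequal ones in the library labelled KO. Lamb1, the beta chain of most laminins, was at 32.1 FPKM in the WT library against 61.3 FPKM in the library labelled KO, with a ratio of 1.91 and a log2 fold change of 0.91. Lamb2, the beta chain concentrated at the neuromuscular synapse and in the kidney filter, went the other way, with 34.0 FPKM in the WT library against 21.3 FPKM in the library labelled KO. This was a log2 fold change of -0.65. Neither gene was more than 2-fold different, yet the ratio of Lamb1 to Lamb2, which no scaling of a library can alter, was 0.945 in the WT library against 2.88 in the library labelled KO. Lamb1 is on chromosome 12 from 31315030 to 31379658 and Lamb2 on chromosome 9 from 108356935 to 108367729. The neighbours of Lamb1 had a median of 0.049 and those of Lamb2 of -0.069.

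Lamc1, the gamma chain shared by most laminins, was at 52.0 FPKM in the WT library against 69.2 FPKM in the library labelled KO. This was a log2 fold change of 0.41, or of 0.19 with the median of its 35 neighbours on chromosome 1, 0.22, subtracted. Lamc1 lies there from 153094597 to 153208774.

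The make-up of the alpha and beta chains was computed over all their genes, which adds Lama1, Lama3 and Lamb3, the chains of early embryos and of epithelia. Lama5 was 97.1% of the alpha chain FPKM in the WT library against 85.4% in the library labelled KO, while Lama4 was 2.11% and 11.4%. Lamb1 was 46.3% of the beta chain FPKM in the WT library against 72.2% in the library labelled KO, and Lamb2 was 49.0% and 25.1%. The beta chains thus went from an even mixture of Lamb1 and Lamb2 to a majority of Lamb1, while Lama5 held most of the alpha chain RNA in both libraries.

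The class sums did not move together. The alpha chains summed to 24.5 FPKM in the WT library against 12.6 FPKM in the library labelled KO, the beta chains to 69.3 and 84.9 FPKM, and Lamc1 alone, taken as the gamma chain, was at 52.0 and 69.2 FPKM. The ratio of alpha chain to Lamc1 RNA was 0.471 in the WT library against 0.182 in the library labelled KO, and that of beta chain to Lamc1 RNA was closer to even, at 1.33 in the WT library against 1.23 in the library labelled KO. By FPKM, alpha chain RNA was the scarcest of these in both libraries, and more so in the library labelled KO. Lama5, which is most of it, has a canonical transcript of 11448 bases, against 7935 for Lamc1, 5799 for Lamb1 and 5636 for Lamb2. Whether such lengths affect a comparison of classes was not tested. Protein was not measured in these data.

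**Figure D3:**
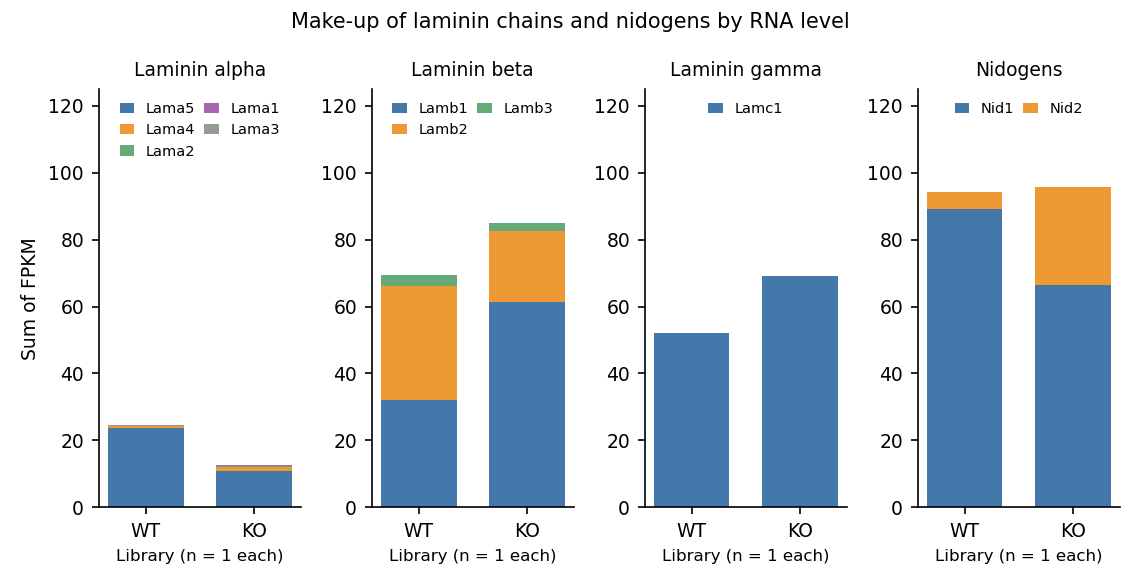
Sum of FPKM of the laminin alpha and beta chain genes, level of the gamma chain gene Lamc1 and sum of the nidogen genes in each library, with a colour for each gene. The alpha bar is shorter in the library labelled KO, 12.6 against 24.5 FPKM, and the nidogen bars are nearly equal in height, 94.2 and 95.9 FPKM, with a larger Nid2 part in the library labelled KO.

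Lama5, Lamb1 and Lamb2, on which these shares turn, have promoter windows in the RefSeq set used here (GRCm38.p6, 250 bases before to 50 after the start of the gene, read on the gene's strand). Windows were found for 7 of the 10 members, all but Lama4, Lamc1 and Nid2. The windows of Lama5, Lamb1 and Lamb2 are shown for their base content, and were picked with the differences of these genes known. They are chr2:180225810-180226109 on the minus strand for Lama5, chr12:31265043-31265342 on the plus strand for Lamb1 and chr9:108479612-108479911 on the plus strand for Lamb2. Capitals mark GC boxes, GGGCGG on either strand.
Lama5: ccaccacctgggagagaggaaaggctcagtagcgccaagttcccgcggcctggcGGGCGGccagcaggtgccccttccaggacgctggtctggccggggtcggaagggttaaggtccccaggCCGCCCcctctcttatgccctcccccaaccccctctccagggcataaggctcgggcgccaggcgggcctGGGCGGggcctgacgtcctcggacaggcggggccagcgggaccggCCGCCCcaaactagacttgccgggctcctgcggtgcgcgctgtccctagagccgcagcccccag
Lamb1: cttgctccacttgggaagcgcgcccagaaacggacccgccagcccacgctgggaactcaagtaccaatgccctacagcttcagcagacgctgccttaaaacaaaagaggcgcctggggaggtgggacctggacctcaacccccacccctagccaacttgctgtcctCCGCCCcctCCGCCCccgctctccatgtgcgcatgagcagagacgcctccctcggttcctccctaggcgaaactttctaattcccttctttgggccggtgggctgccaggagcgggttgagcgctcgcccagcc
Lamb2: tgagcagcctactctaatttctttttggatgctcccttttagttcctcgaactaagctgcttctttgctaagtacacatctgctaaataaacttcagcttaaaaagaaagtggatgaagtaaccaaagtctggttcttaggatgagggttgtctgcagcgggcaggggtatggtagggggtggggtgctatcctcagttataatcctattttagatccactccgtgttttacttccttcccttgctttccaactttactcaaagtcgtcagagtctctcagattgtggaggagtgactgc

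The Lama5 window held 4 GC boxes, that of Lamb1 held 2 and that of Lamb2 held 0, and 35.7% of all 32851 windows of this length held at least 1. The G and C content was 72.7% for Lama5, 63.7% for Lamb1 and 44% for Lamb2, against a median of 52.7%. The observed over expected number of CpG dinucleotides was 0.607, 0.615 and 0.276 in the same order, against a median of 0.384. The Lama5 and Lamb1 windows were thus CpG-rich beside the median, and the Lamb2 window was CpG-poor. In the other member windows this ratio was 0.49 and 0.87 for Agrn, 0.88 for Hspg2, 0.053 for Lama2 and 0.64 for Nid1. Whether window content goes with the direction of a difference was not tested. E-boxes, CANNTG, which bind MyoD and related factors among others, occurred 2 times in the windows of Lama5 and Lamb1 and 1 time in that of Lamb2, and 72.3% of all windows held one. The letters TATAAA, found in 13.6% of windows, and the AP-1 letters TGANTCA, found in 7.81%, did not occur in the 3 windows on either strand. None of these matches overlapped a match of another motif. These matches describe letters and not bound sites.

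Of the nidogens, rod-like glycoproteins that bridge the laminin gamma chain and type IV collagen, Nid2 showed the largest difference of the 10 genes. Nid2 was at 5.23 FPKM in the WT library against 29.3 FPKM in the library labelled KO, with a ratio of 5.60 and a log2 fold change of 2.28. Only 54 of the 10542 genes past the filter had a higher log2 fold change. Nid2 lies on chromosome 14 from 19801298 to 19861855, and its 29 neighbours had a median of 0.063. Its exons overlap those of Rtraf on the opposite strand by up to 602 bases, the gene of an RNA transcription and transport factor, which was at 64.4 FPKM in the WT library against 68.5 FPKM in the library labelled KO.

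Nid1, on chromosome 13 from 13612071 to 13686860, was at 89.0 FPKM in the WT library against 66.6 FPKM in the library labelled KO. This was a log2 fold change of -0.41, and its neighbours had a median of 0.051. The sum of both nidogens was 94.2 FPKM in the WT library against 95.9 FPKM in the library labelled KO, so the difference lay in the make-up and not in the sum. Nid2 was 5.55% of nidogen FPKM in the WT library against 30.5% in the library labelled KO.

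The heparan sulfate proteoglycans were both higher, by unequal amounts. Hspg2 encodes perlecan, which binds laminin, nidogen, type IV collagen and dystroglycan, and was at 38.4 FPKM in the WT library against 58.3 FPKM in the library labelled KO. The ratio was 1.52 and the log2 fold change 0.59, on chromosome 4 from 137196079 to 137298231, where the 104 neighbours had a median of -0.089. Agrn encodes agrin, which links laminin to dystroglycan and, in its neural splice form, clusters acetylcholine receptors through Lrp4 and Musk. Its levels were 5.80 FPKM in the WT library against 6.42 FPKM in the library labelled KO, and the log2 fold change was 0.13. A value per gene does not separate the neural from the muscle splice form. Agrn lies on the same chromosome from 156249740 to 156282014, where 12 of 49 neighbours were higher and the median was -0.18. Neighbours higher were 25 of 35 for Lamc1, 31 of 91 for Lamb2 and 34 of 104 for Hspg2. They were 19 of 42 for Lama5, 14 of 24 for Lamb1, 13 of 26 for Nid1 and 19 of 29 for Nid2.

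A further 78 genes of the basement membrane, its receptors and its enzymes were described with the same values. Of these, 50 passed the filter, 34 were higher and 16 lower in the library labelled KO, 6 were higher by more than 2-fold and 3 lower by more than 2-fold, and the median log2 fold change was 0.18. The shares over all genes past the filter were the 2.84% and 3.43% given above, with 5348 higher and 5192 lower. Type IV collagen is the network to which nidogens and perlecan connect. Of the 8 basement membrane collagen genes 4 passed the filter, all 4 were higher and 3 were more than 2-fold higher. Col4a1 was at 34.5 and 88.0 FPKM, Col4a2 at 14.8 and 55.4 FPKM and Col4a5 at 0.018 and 6.08 FPKM, with the WT value first. Col4a5 passed the filter only through the library labelled KO, where it is high, as did Smoc2 and Pomgnt2. So did Ntn4, at 0.613 and 1.55 FPKM, and Tgm2, at 0.983 and 2.27 FPKM. Their log2 fold changes were 0.66 and 0.72, and both count among the higher genes. Col4a1 and Col4a2 lie side by side and are transcribed from a shared promoter.

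Among 19 other basement membrane components 9 passed the filter, 1 was more than 2-fold higher and 2 were more than 2-fold lower, with a median of 0.018. The shares over all genes past the filter were 2.84% and 3.43%, and counts this small do not set the list apart from them. Smoc2, a matricellular relative of Sparc, was at 0.406 FPKM in the WT library against 6.92 FPKM in the library labelled KO. Tinagl1, a laminin- and integrin-binding matricellular protein, was at 21.3 and 4.56 FPKM, and Fbln2, a fibulin that binds laminin and nidogen, was at 89.2 and 40.5 FPKM. Other laminin chains were scarce. Of the 4 listed, Lamb3 passed the filter, at 3.29 and 2.26 FPKM, and Lama1, listed at 0 in the WT library, was at 0.214 FPKM in the library labelled KO.

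Laminin receptor genes that passed the filter differed by less than 2-fold, as did 93.7% of all genes past it. Of 11 genes 6 passed the filter, 5 of them higher and 1 lower, with a median of 0.18 and a range from -0.72 to 0.69. Itga7, the alpha subunit of the main laminin integrin of muscle, was at 47.4 FPKM in the WT library against 28.4 FPKM in the library labelled KO, and its partner Itgb1 was at 153 and 247 FPKM. Dag1, which encodes dystroglycan, was at 46.4 and 64.9 FPKM, and Itgb1 and Dag1 are named with their values in view. Laminin, perlecan and agrin bind dystroglycan through a sugar chain built on O-mannose, and 11 genes listed for its assembly all passed the filter. Of these, 9 were higher and 2 lower, with a median of 0.16, and 1 was more than 2-fold higher. Pomgnt2, an enzyme that extends the O-mannose, was that gene, at 0.825 and 3.72 FPKM, and passed the filter only through the library labelled KO. Over all 10542 genes past the filter, 5348 were higher, 5192 were lower and 2.84% were more than 2-fold higher.

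Of the 4 genes of the agrin receptor complex 2 passed the filter, and both were lower in the library labelled KO, Rapsn by more than 2-fold. Of all 10542 genes past the filter, 5192 were lower, and 3.43% were lower by more than 2-fold. Rapsn, the scaffold that anchors acetylcholine receptors, was at 96.5 FPKM in the WT library against 44.1 FPKM in the library labelled KO, and Lrp4, the agrin receptor, was at 8.24 and 3.74 FPKM. Their log2 fold changes were -1.11 and -0.96. As plain ratios of WT to KO they were alike, 2.19 for Rapsn and 2.20 for Lrp4, so the pseudocount alone keeps Lrp4 within 2-fold. Musk and Dok7, the kinase and its adaptor, did not pass the filter, at 1.23 and 1.82 FPKM in the WT library and at 0.555 and 0.037 FPKM in the library labelled KO. Lrp4, Musk and Dok7 are named after their values were seen.

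**Figure D4:**
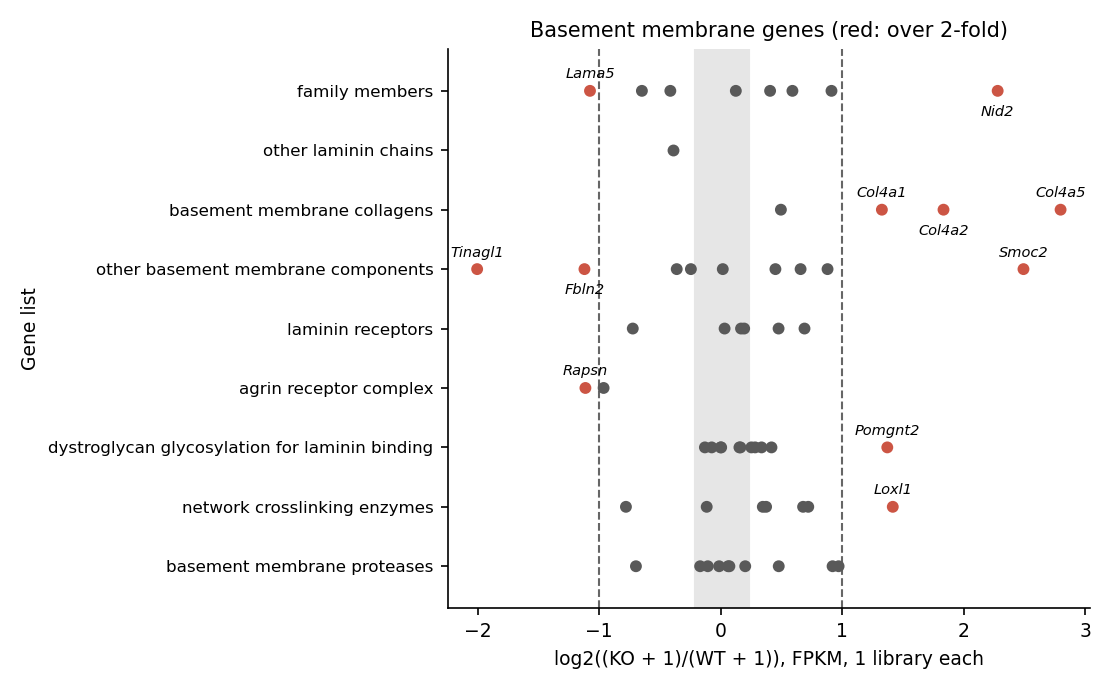
Log2 fold change (library labelled KO over WT, 1 library each) of the laminin and linker genes and of 8 further gene lists, with a point for each gene past the filter. The shaded band is the middle 50% of all genes and the dashed lines mark 2-fold; red points, which carry names, lie beyond them, with Col4a5 at 2.80 and Tinagl1 at -2.00 as the outermost.

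The depth behind these values is known only roughly. In 207 genes of the WT library with a single annotated transcript and a value between 0.01 and 0.3 FPKM, FPKM times transcript length fell most often between 35 and 40, and in 230 genes of the library labelled KO between 40 and 45. Taken as the worth of 1 fragment, a reading chosen after the values were seen, this puts about 50 and 38 fragments behind the values of Lama2 and 83 and 204 behind those of Lama4. The same estimate gives 684 and 3377 fragments for Nid2. It is weak, since the commonest range held only 22 of the 207 genes in the WT library and 20 of the 230 in the library labelled KO, with 8 and 20 genes below it, and no counting interval or order of depth is drawn from it.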

How the data were processed

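Polyadenylated RNA of 1 WT and 1 Gne KO C2C12 culture was sequenced. Values deposited by the authors, 1 for each symbol in a library, carry no unit and were read as FPKM because their totals differ. Without repeated symbols the totals were 568410 for WT and 574144 for KO. This cannot tell FPKM from TPM, a related length-scaled unit, because TPM limited to the listed genes could also have unequal totals. The study's methods name expected read counts and TPM as the abundance measures, so the unit is not known. Trim Galore 0.6.6, STAR 2.7.9a and RSEM 1.3.3 are listed in the submitters' processing notes with GRCm38, whereas the study's methods name GRCm39 and another STAR release. The sample description and the methods also name different library kits. Where a symbol came more than once, as in 24 of the 21853 rows, only its row of highest mean entered. The members and gene lists were chosen with earlier results of these data known.

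The measure was log2((KO + 1)/(WT + 1)) over genes whose mean reached 1 FPKM. No test was made with 1 library per line. Named genes were the members, listed pathway genes more than 2-fold different, markers whose mean reached 1 FPKM, and Gne. Other genes, among them markers under the filter and pathway genes within 2-fold, were named with their values in view. Positions were taken from GENCODE vM39 on GRCm39 by symbol (10171 of 10542 genes), promoter windows from RefSeq on GRCm38.p6. Some genes of the lists first drawn up are not reported here. Functions were tested on simulated data. Alternatives were pseudocounts of 0.1 and 5, other filters, 2 scalings, summed repeats, subtraction of the median of genes within 5 Mb and, added after the data were seen, no pseudocount. Python 3.11.15, numpy 2.4.6, pandas 2.3.3 and matplotlib 3.10.9 were used.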

Additional observations from a re-analysis of the deposited data

How the results depend on the processing

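No paired analysis was possible because each line has 1 library and nothing was tested, and for the same reason no library could be left out. Single values were taken as moved beyond 0.44, the interquartile range of all genes. With a pseudocount of 5, 0 members were more than 2-fold lower, against 1, since Lama5 lies near the line. Over all genes this setting gave 102 higher and 176 lower, against 299 and 362, and a mean of at least 5 FPKM gave 145 and 221, where fewer genes were counted. The members' median stayed between 0.23 and 0.28 under the alternatives. Of 70 member values under 7 alternatives, 70 had the direction first given. Most of this was fixed in advance, since a pseudocount cannot change a direction and summing repeats changed no member value. The scalings were slight, with a median of ratios factor of 1.0087, so mainly the subtraction of neighbours could have reversed a member. Of the 70 values, 66 did not move. The others were those of Lama4, 1.32, 0.22 and 1.48 with pseudocounts of 0.1, 5 and none, and of Nid2, 1.74 with a pseudocount of 5. Lama2 and Lama4, the members under the filter, had the lowest levels, and the precision of their values was not measured.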

Other observations

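Enzymes that crosslink or cut the basement membrane were mostly within 2-fold between the 2 libraries, as were 93.7% of all genes past the filter. Of 8 crosslinking enzyme genes 7 passed the filter, 5 of them higher and 2 lower in the library labelled KO, with a median log2 fold change of 0.37. Loxl1, a lysyl oxidase best known from elastic fibres, was more than 2-fold higher, at 15.2 FPKM in the WT library against 42.3 FPKM in the library labelled KO. Pxdn, the peroxidase that forms the sulfilimine bonds of type IV collagen, was at 15.0 and 24.7 FPKM, and Loxl2, which crosslinks the same network through lysines, was at 0.821 and 0.052 FPKM, under the filter. Both were picked with their values in view.

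Of 13 genes for proteases of the basement membrane and their inhibitors 10 passed the filter. All 10 were within 2-fold on the log2(value + 1) scale, with a median of 0.067. Over all genes past the filter this share was 93.7%, so the count does not set these genes apart. The largest differences, named after their values were seen, were those of Plau, urokinase, at 10.0 and 20.6 FPKM, and of the lysosomal protease gene Ctsl, at 143 and 272 FPKM. Mmp14, the membrane-bound collagenase, was at 228 and 226 FPKM, and the inhibitor gene Timp2 at 269 and 281 FPKM.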
